A study of Mus musculus with 12 samples.

Results

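Ileal gene expression was compared between germ-free (GF) mice exposed to tylosin early in life, called GF PAT after the pulsed antibiotic treatment, and GF control mice. The members were the 3 mice of each group, so that 6 of the 12 mice of the series were compared, together with every gene that had a value. Values were given for 556 genes out of 584 entries of the table. The difference for a gene was the mean log2 normalized count of GF PAT mice minus that of GF control mice, and a difference of 1 is a 2-fold change. All 6 mice were male C57BL/6 mice without any microbes, and the piece of tissue was the end of the ileum at week 7. GF PAT mice received tylosin as pups through the water of their dams, weeks before tissue was taken, and GF control mice received water without the drug. The other 6 mice, SPF PAT and SPF control, were male C57BL/6 mice of the same age that carried a specific-pathogen-free microbiota, and they serve here only to show where the GF comparison differed. The labels name no litter or cage, and the drug was given through dams, so that p-values measure the spread between these mice and a litter cannot be told apart from its group.

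Tylosin is a macrolide, a class of antibiotic that binds the bacterial ribosome. Macrolides are also known to act on host cells, where they can dampen NF-kB signalling, cytokine release and the recruitment of neutrophils, so that a germ-free host allows a drug effect to be sought in the absence of bacteria. The ileum of a germ-free mouse is known for few intraepithelial lymphocytes, few Th17 cells and small Peyer's patches, the lymphoid follicles of the gut wall.

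RNA was counted with the NanoString nCounter mouse immunology panel, in which a colour-coded probe is counted for each transcript without amplification. The 6 GF mice had total counts of 626329 to 681370, recovered from the deposited log2 values. In bulk tissue, fewer cells of a type and less RNA per cell cannot be told apart. Of 7 measured markers of small intestinal epithelium, all 7 had at least 20 normalized counts in every GF mouse.

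No gene passed the test between GF PAT and GF control mice. In limma's moderated test, 0 of 556 genes (0%) passed at an adjusted p of 0.05. The gene nearest to it was Fkbp5, at an adjusted p of 0.121. At an unadjusted p under 0.05 there were 28 genes (5.04%), 13 of them higher (2.34%) and 15 lower (2.7%) in GF PAT mice. Tukey HSD called 0 genes and limma's voom on the recovered counts called 1, which was Fkbp5. The 3 mice of one group did not overlap with those of the other for 67 genes (12.1%), 25 higher (4.5%) and 42 lower (7.55%) in GF PAT mice. After centring each mouse on its median gene, these counts were 11 higher and 36 lower, and after quantile normalization they were 11 and 40.

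The precision of the comparison differed between genes. The 95% confidence interval of the difference reached 0.53 to either side for the median gene, a factor of 1.45, and lay within -1 and 1 for 355 genes (63.8%). Among the 441 genes with a mean of at least 20 normalized counts, 76% had such an interval, against 17.4% of the 115 genes below it. For 32 genes the interval reached more than 2 to either side, and 14 of these were B cell and follicle genes. The median difference over all 556 genes was -0.0043, with 274 genes above 0 (49.3%) and 281 below (50.5%). Median centring moved that median to -0.19 with 32.9% of genes above 0, and quantile normalization moved it to -0.06 with 39.4%, so the directions of small differences are relative to the scaling.

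Whole profiles were compared by their distances. The mean distance between a GF PAT and a GF control mouse over all genes was 19.0 log2 units, against 17.7 between mice of one group. The exact permutation test over 20 labellings gave a one-sided p of 0.3, where the smallest p possible was 0.1, so that this test could not have passed 0.05. GF control mouse 37 was closest to GF PAT mouse 41, at 12.8.

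Fkbp5, which encodes a co-chaperone of the glucocorticoid receptor and is a known target of glucocorticoids, had the smallest p. Its log2 normalized count was 8.94, 8.88 and 8.62 in GF PAT mice 43, 42 and 41 and 9.53, 9.86 and 9.65 in GF control mice 39, 38 and 37. Every GF PAT mouse was below every GF control mouse. The difference was -0.87 (SE 0.15, 95% confidence interval -1.20 to -0.53), which is 0.549 of the GF control level, with a limma adjusted p of 0.121 and an adjusted p of 0.0294 in voom. In SPF mice the difference was 1.56 in the other direction (limma adjusted p = 0.000541), and the difference between the GF and SPF effects of -2.42 had a limma adjusted p of 0.000372.

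The promoters of Fkbp5 and of Cxcl10, a chemokine gene described next, are shown because one of these genes was lower and the other higher in GF PAT mice without overlap, and their regulators are well known. Each is 300 bases, from 250 before the transcription start to 50 after it, on the minus strand of the mouse build GRCm38.p6, from RefSeq. Capitals mark motif matches, which were searched on both strands.
Fkbp5 (chr17:28486100-28486399): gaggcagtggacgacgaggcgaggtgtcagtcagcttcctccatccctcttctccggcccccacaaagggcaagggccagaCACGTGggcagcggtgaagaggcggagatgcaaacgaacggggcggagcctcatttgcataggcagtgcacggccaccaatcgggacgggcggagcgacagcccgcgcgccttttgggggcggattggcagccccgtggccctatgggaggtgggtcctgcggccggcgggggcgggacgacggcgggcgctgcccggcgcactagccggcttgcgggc
Cxcl10 (chr5:92348840-92349139): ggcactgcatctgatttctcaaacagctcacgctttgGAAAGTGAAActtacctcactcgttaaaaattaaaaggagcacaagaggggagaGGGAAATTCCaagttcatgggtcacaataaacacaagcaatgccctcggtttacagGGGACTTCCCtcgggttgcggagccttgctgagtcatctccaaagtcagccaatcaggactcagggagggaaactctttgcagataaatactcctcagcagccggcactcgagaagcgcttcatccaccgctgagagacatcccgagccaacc
In Fkbp5 the capitals are the E-box CACGTG, letters bound by circadian clock proteins, which is found in 7.15% of 32851 mouse promoters. The glucocorticoid response element, AGAACA and TGTTCT with 3 bases between, had no match in this window, and 0.00913% of all promoters hold one. In Cxcl10 the capitals are 2 matches to the NF-kB motif, GGGA and CC with 4 bases between, found in 20.7% of promoters, and 1 match to the interferon-stimulated response element, GAAA and GAAA with 2 bases between, found in 3.44%. These are matches of letters and not measured binding.

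Of the 12 genes with the smallest p, 11 are described here, of which 6 were higher and 5 lower in GF PAT mice, and none of the 11 had overlapping groups, beside 12.1% of all genes without overlap. The genes were chosen by their p, so that this count is a description.

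**Figure D1:**
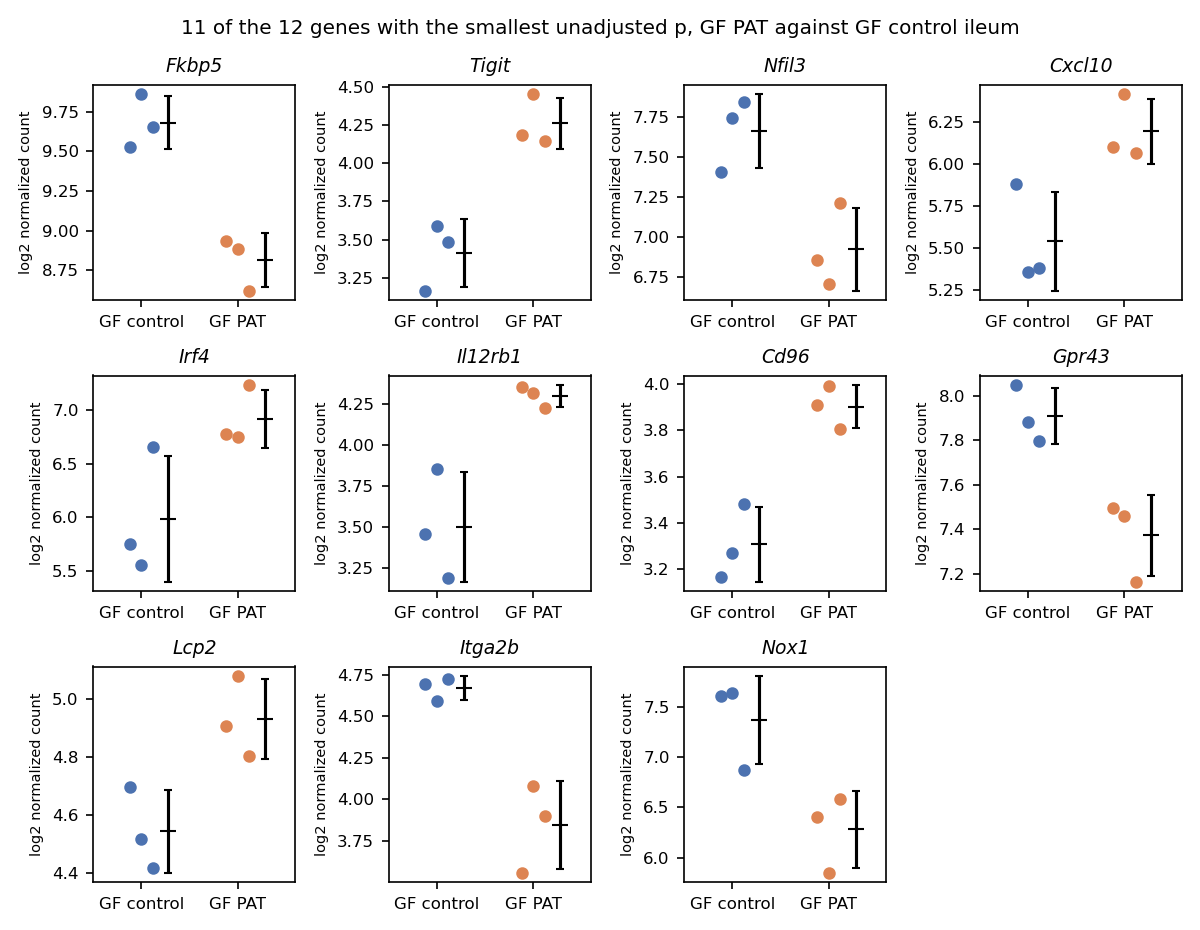
Log2 normalized count (y axis, scaled separately for each gene and not starting at 0) in 3 GF control and 3 GF PAT mice for 11 of the 12 genes with the smallest unadjusted p. Points are mice and the black bars are the mean and SD of the group. In all 11 panels the groups do not overlap, and none of the genes had a limma adjusted p below 0.121.

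Among the genes with the smallest p, Tigit, an inhibitory receptor of T and natural killer (NK) cells, had 4.19, 4.45 and 4.15 in GF PAT mice and 3.17, 3.59 and 3.48 in GF control mice, a difference of 0.85 (SE 0.19, limma adjusted p = 0.326). Cd96, a receptor that binds a ligand shared with Tigit, had 3.91, 3.99 and 3.81 against 3.17, 3.27 and 3.48, a difference of 0.60 (SE 0.18, limma adjusted p = 0.441). Both were low, with 9 to 22 counts of Tigit and 8 to 16 of Cd96 in a mouse, so that 1 step of a count is a large part of the value. Il12rb1, the receptor chain shared by IL-12 and IL-23, had 4.35, 4.31 and 4.22 against 3.46, 3.85 and 3.19. Its difference was 0.79 (SE 0.22, limma adjusted p = 0.411), and its values were as low as those of Tigit. Lcp2, an adaptor of T cell receptor signalling, had 4.91, 5.08 and 4.80 against 4.70, 4.52 and 4.41, a difference of 0.39 (SE 0.12, limma adjusted p = 0.441). For Lcp2 the gap between the lowest GF PAT and the highest GF control mouse was small beside the spread within the groups.

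Among transcription factors, Irf4, which directs the maturation of B cells and of some T cells, had 6.77, 6.75 and 7.23 in GF PAT mice and 5.75, 5.55 and 6.65 in GF control mice. The difference was 0.93 (SE 0.25, limma adjusted p = 0.411). GF control mouse 37 was nearly at the GF PAT level, and without it the difference was 1.26 with a limma adjusted p of 0.0176, the only call made when 1 mouse was left out. Nfil3, a leucine zipper factor under circadian control that is needed for innate lymphoid cells, had 6.86, 6.71 and 7.21 against 7.41, 7.74 and 7.84. Its difference was -0.74 (SE 0.19, limma adjusted p = 0.411), and it was -0.83 in SPF mice.

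Cxcl10, a chemokine that interferons induce and that attracts activated T cells, had 6.10, 6.42 and 6.07 in GF PAT mice and 5.88, 5.36 and 5.38 in GF control mice. Its difference was 0.66 (SE 0.17, limma adjusted p = 0.411). The difference in SPF mice was -1.20, and the effects differed by 1.85 (limma adjusted p = 0.00467).

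The other genes with the smallest p were lower in every GF PAT mouse. Nox1, an NADPH oxidase of the gut epithelium, had 6.41, 5.85 and 6.59 against 7.60, 7.63 and 6.87, a difference of -1.09 (SE 0.35, limma adjusted p = 0.524). Gpr43, an older name for a receptor of short-chain fatty acids, had 7.49, 7.46 and 7.16 against 8.05, 7.88 and 7.80, a difference of -0.54 (SE 0.16, limma adjusted p = 0.441). Itga2b, the alpha chain of the platelet integrin, had 3.56, 4.08 and 3.90 against 4.70, 4.59 and 4.72, a difference of -0.82 (SE 0.27, limma adjusted p = 0.524). The GF control mice were close together for Itga2b and wide apart for Nox1. Itga2b was also low, at log2 normalized counts of 3.56 to 4.72.

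Differences were also ranked by size. Of 35 genes that differed by at least 1 in either direction (6.29%), 32 were higher (5.76%) and 3 lower (0.54%) in GF PAT mice, the 3 being Cfd, Saa1_2 and Nox1. None of the 32 higher genes had an unadjusted p under 0.05, and the mice overlapped for all 32. In 29 of them GF control mice 38 and 39 were below every GF PAT mouse, and in 30 GF control mouse 37 was above the lowest GF PAT mouse.

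Of these 32, 13 belonged to the list of B cell and follicle genes. Ms4a1, which encodes CD20, a surface protein of B cells, had 8.76, 9.99 and 10.77 in GF PAT mice 43, 42 and 41 and 5.08, 7.09 and 9.94 in GF control mice 39, 38 and 37. Its difference was 2.47 (SE 1.89, limma adjusted p = 0.693), and its GF control mice spanned a factor of 29.0. GF control mouse 37 lay inside the range of the GF PAT mice.

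Cxcr5, the receptor that guides B cells into follicles, differed by 2.15. Cd79b, a chain of the B cell receptor complex, differed by 2.15, and Cd22, an inhibitory co-receptor, by 2.11. Of the 19 measured genes of the list, 18 were above 0 and 1 below, with a median of 1.28 against -0.0043 over all genes, and of 2.06 without GF control mouse 37. Of the 19, 0 had an unadjusted p under 0.05 and 0 did not overlap, beside 5.04% and 12.1% of all genes. The gene below 0 was Bcl6, a germinal centre repressor, at -0.26.

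The mean of the 19 genes was 6.76, 7.55 and 8.19 in GF PAT mice 43, 42 and 41 and 4.88, 5.69 and 7.54 in GF control mice 39, 38 and 37. A spread as wide was present in SPF mice, with 4.64, 4.73 and 8.17 in SPF PAT mice 27, 26 and 21 and 5.51, 8.33 and 8.14 in SPF control mice 8, 7 and 2. In 3 of the 4 groups the highest and the lowest mouse differed by more than 2 log2 units. The median gene of the list spanned a factor of 7.57 among the 3 GF control mice, against 1.39 over all genes. How much follicle tissue each piece of ileum held was not measured, and its part in these differences was not tested.

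**Figure D2:**
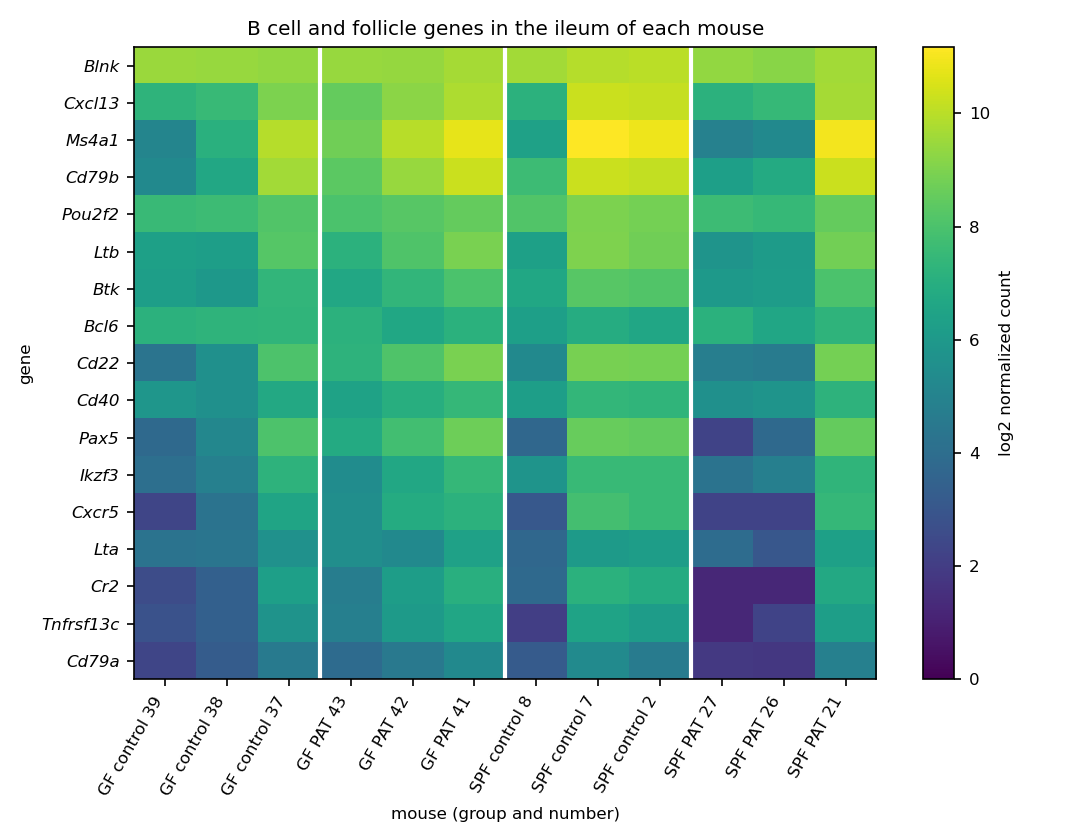
Log2 normalized count (colour) of 17 of the 19 measured B cell and follicle genes (rows, ordered by mean) in each of the 12 mice (columns, with white lines between the groups). GF control mouse 37 is as high as the GF PAT mice for most genes, whereas GF control mice 39 and 38 are lower, and low mice also occur among SPF control and SPF PAT mice.

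T cell and antigen presentation genes differed less, with a similar order of mice. Of 19 measured T cell genes, 17 were above 0 (median 0.48) and 1 did not overlap, beside 12.1% of all genes. In 15 of the 19 GF control mice 38 and 39 were below every GF PAT mouse, as they were in 136 of all 556 genes. Thy1, a T cell surface protein, differed by -0.08. Of 10 measured genes of MHC class II presentation, 8 were above 0 (median 0.42), from -0.68 to 1.94 for H2-Ob, a class II chain found in B cells. Of 16 measured co-inhibitory and co-stimulatory receptors, 14 were above 0 (median 0.31), with Btla, an inhibitory receptor of B and T cells, at 1.65, and Cd244 at -0.25. Of the 16, 3 were higher without overlap, Tigit and Cd96 among them, and 1 was lower, beside 4.5% and 7.55% of all genes. The lower one was Cd244, an NK cell receptor.

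In other lymphocyte lists the medians were near 0. The 13 measured Th17 and innate lymphoid genes had a median of 0.16, which was below 0 after median centring or quantile normalization. Ccr6, a receptor of Th17 and B cells, differed by 1.59 and Il1r1 by -0.24. The median of 13 cytotoxic and NK genes was 0.10, that of 11 T helper and regulatory transcription factors 0.08, and that of 5 plasma cell genes 0.07, and these 3 medians were also below 0 after either scaling. Gzmb, a protease of cytotoxic granules, differed by 0.36, Tbx21, the T helper 1 factor, by -0.26, Tcf7, a factor of T cell development, by 0.25, and Prdm1, which drives plasma cell maturation, by -0.59. Prdm1 was lower in every GF PAT mouse, while Irf4, also on the plasma cell list, was higher in each. Of the 5 plasma cell genes, 1 was higher and 2 lower without overlap, beside 4.5% and 7.55% of all genes. After quantile normalization 1 was higher and 1 lower. The summed normalized count of 3 measured plasma cell markers, Prdm1, Xbp1 and Tnfrsf17, was 4719 to 5775 in GF PAT mice and 6139 to 6862 in GF control mice. Such a sum follows its most abundant members, and of the 5 plasma cell genes 3 were above 0 and 2 below. Whether the number of plasma cells differed was not tested.

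A small group of genes encodes products that were also measured by other assays in this study. Of the 7 described here, 0 had an unadjusted p under 0.05. Il17a, the Th17 cytokine, had 2.69, 2.99 and 3.90 in GF PAT mice and 1.996, 2.59 and 3.34 in GF control mice, a difference of 0.55 (95% confidence interval -0.26 to 1.36). The groups overlapped, and the counts were between 4 and 16 per mouse. Cd4, the T helper co-receptor, differed by 0.03 (-0.65 to 0.72). Cd8a, the co-receptor of cytotoxic T cells, differed by 0.44 (-0.32 to 1.19), and Foxp3, the factor of regulatory T cells, by 0.56 (-0.29 to 1.41). Ifng, the type II interferon, differed by -0.10 (-1.12 to 0.93) and Ptprc, which encodes the leukocyte protein CD45, by 0.49 (-0.61 to 1.58). Pigr, the receptor that carries IgA across the epithelium, had 14.87, 14.60 and 14.64 against 15.12, 15.08 and 14.93, a difference of -0.34 (-0.87 to 0.19), and was lower in every GF PAT mouse.

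Epithelial and innate sensing genes were mostly below 0. Of 16 measured epithelial defence genes, 14 were below 0 (median -0.24) and 7 did not overlap, all lower in GF PAT mice, beside 7.55% of all genes. These 7 were Pigr, Itln1, Saa1_2, Ccl25, Cx3cl1, Ceacam1 and Nox1, and after median centring 3 of the list did not overlap. The summed normalized count of 7 epithelial markers, 4 of which are among these 7 genes, was 121777 to 137931 in GF PAT mice and 141278 to 159228 in GF control mice. Its part in the differences of this list was not tested.

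Saa1_2, a probe shared by the acute-phase genes Saa1 and Saa2, had 6.58, 5.95 and 6.71 in GF PAT mice and 7.77, 7.81 and 8.15 in GF control mice. The difference was -1.50 (SE 0.51, limma adjusted p = 0.601), and it was -5.12 in SPF mice (limma adjusted p = 0.000541). The effects differed by 3.62 (limma adjusted p = 0.0150). Saa3, another acute-phase gene, differed by 0.47 in GF mice.

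Of 18 measured genes of Toll-like and NOD receptor signalling, 14 were below 0 (median -0.16) and 5 were lower without overlap, namely Tlr5, Cd14, Myd88, Irak3 and Irak4, beside 7.55% of all genes. Cd14, a co-receptor for lipopolysaccharide, differed by -0.50, and Tlr9, a sensor of bacterial DNA found in B cells, by 0.67. All 12 measured autophagy and apoptosis genes were below 0 (median -0.16), down to -0.35 for Casp8, a protease that starts apoptosis, and 3 were lower without overlap, beside the same 7.55%. After median centring 3 of the receptor list and 2 of the apoptosis list did not overlap. The medians of both lists lay below the median of -0.0043 over all genes. After median centring they were -0.35 for each list, against -0.19 over all genes. After quantile normalization they were -0.25 for the receptor list and -0.17 for the apoptosis list, against -0.06 over all genes.

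For the lists of MHC class I with the immunoproteasome and of interferon-stimulated genes the differences were small. The 9 measured genes of MHC class I and the immunoproteasome had a median of -0.14, from -0.28 for H2-Q10 to 0.35 for Tap1, a subunit of the peptide transporter. The 17 interferon-stimulated genes had a median of 0.03, and -0.16 after median centring, from -0.33 for Cxcl11 to 0.66 for Cxcl10. For all 9 genes of the first list and 16 of the 17 of the second the 95% confidence interval lay within -1 and 1.

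The medians of complement, myeloid and stromal lists lay between -0.21 and 0.49. They were -0.08 for 27 complement genes, -0.01 for 13 macrophage and dendritic cell genes, 0.49 for 8 neutrophil genes and -0.21 for 4 mast cell, basophil and eosinophil genes. They were -0.08 for 9 TGF-beta genes, -0.07 for 29 genes of NF-kB, MAPK and JAK-STAT signalling and 0.02 for 10 endothelial and stromal genes, the last of which was -0.17 after median centring. Cfd, the complement protease known as adipsin and made in fat, had 10.75, 2.99 and 4.07 in GF PAT mice against 11.44, 8.95 and 7.74 in GF control mice. Its difference was -3.44 (SE 2.56, limma adjusted p = 0.693). GF PAT mouse 43 was within the range of the GF control mice, whereas the other GF PAT mice were far lower. A wide spread was also present in SPF mice, with 9.996, 9.68 and 5.34 in SPF PAT mice and 10.46, 8.78 and 2.07 in SPF control mice.

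The other members with the highest or lowest difference in these lists were within 1 of 0. C3, the central complement component, differed by 0.62 and Ncf4, a subunit of the phagocyte oxidase, by 0.52. Ccr2, a monocyte chemokine receptor, differed by 0.22. Tgfb1 and Tgfb3, ligands of the TGF-beta receptor, differed by 0.34 and -0.30. Map4k1, a kinase of blood cells, differed by 0.85 and Nfkbiz, an atypical NF-kB inhibitor, by -0.32. Icam2, an endothelial adhesion molecule, differed by 0.54 and Pdgfrb, the receptor of pericytes, by -0.35. Il1rl1, the IL-33 receptor of mast cells, differed by -0.53.

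Genes through which macrolides are known to act on host cells were distributed around 0. Of 19 measured members, 9 were above and 10 below 0 (median -0.0035), and 1 in each direction did not overlap, the higher one being Csf2, beside 12.1% of all genes without overlap. None had an unadjusted p under 0.05, beside 5.04% of all genes, and for 10 the 95% confidence interval lay within -1 and 1. Among cytokines and chemokines, the difference was 0.21 for Il1b, 0.58 for Il6, 0.07 for Tnf, -0.33 for Cxcl1, 0.34 for Ccl2, 0.34 for Csf2 and -0.27 for Il10. The intervals of Il6 (-1.02 to 2.18), Tnf (-1.25 to 1.38) and Cxcl1 (-1.95 to 1.29) were wide, at low counts. Csf2 was also low, with 8 to 17 counts in a GF mouse.

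Within the NF-kB pathway, the subunits Nfkb1 and Rela differed by -0.14 and -0.06 and the inhibitor Nfkbia by -0.16. The interval of Nfkb1 was -0.37 to 0.09. The kinase Mapk14 differed by -0.0043, and Tlr4, the lipopolysaccharide receptor, by -0.26. The adhesion molecule Icam1 differed by 0.55, the prostaglandin enzyme Ptgs2 by -0.16 and the nitric oxide synthase Nos2 by -0.22. Of genes of neutrophils, S100a8 and S100a9, which form calprotectin, differed by 0.83 and 0.46 and the chemokine receptor Cxcr2 by 0.78, each at low counts.

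Of 7 measured drug efflux pumps and cell-surface enzymes, 4 had an effect of tylosin that differed between GF and SPF mice past the threshold, each more negative in GF mice, beside 9.89% of all genes in that direction. Abcb1a encodes P-glycoprotein, a pump that exports drugs, macrolides among them. It had 15.28, 15.15 and 14.89 in GF PAT mice and 14.88, 15.34 and 14.92 in GF control mice, a difference of 0.06 (95% confidence interval -0.37 to 0.49). In SPF mice it differed by 1.76, and the effects differed by -1.70 (limma adjusted p = 0.00939). The peptidases Mme and Dpp4 differed by -0.16 and -0.12 in GF mice, and Bst1, an enzyme that uses NAD, by 0.18. For these 3 the effects in GF and SPF mice differed by -1.31, -0.82 and -1.60 (limma adjusted p = 0.0208, 0.0322 and 0.0225). Abcb10, a mitochondrial transporter, Nt5e and Entpd1, which break down extracellular nucleotides, differed by -0.07, -0.49 and -0.13. Of the 7 measured genes, 5 were higher in SPF PAT mice past the threshold (14% of all genes), and 0 in GF PAT mice.

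Of 7 glucocorticoid and circadian regulators, 3 were measured. Fkbp5 and Nfil3 were lower in every GF PAT mouse, and Cebpb, a factor of the acute-phase response, differed by 0.01.

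**Figure D3:**
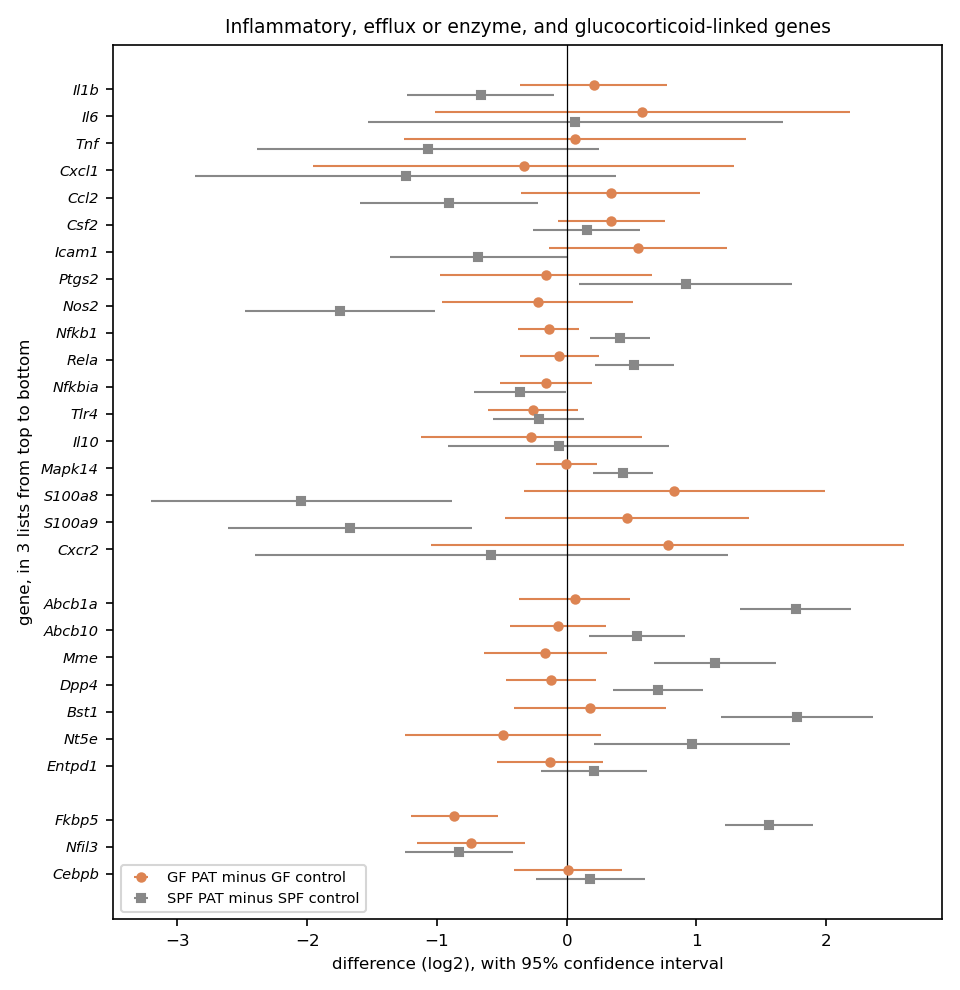
Difference in log2 normalized count between PAT and control mice, with its 95% confidence interval, for GF mice (circles) and SPF mice (squares). From top to bottom the gene groups are macrolide-linked inflammatory genes, drug efflux pumps and cell-surface enzymes, and glucocorticoid and circadian regulators. In GF mice only the intervals of Fkbp5 and Nfil3 leave out 0, and Abcb1a, Mme, Bst1 and Fkbp5 are above 1 in SPF mice but not in GF mice.

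The GF comparison was then set against the same comparison in SPF mice, which shares no mice with it. In SPF mice 146 genes (26.3%) had a limma adjusted p under 0.05, 78 higher (14%) and 68 lower (12.2%) in SPF PAT mice. After median centring there were 76 higher and 30 lower, and after quantile normalization 90 and 49. Total counts were 600308 to 671692 in SPF PAT mice and 806043 to 923395 in SPF control mice, without overlap. The part of this depth in the SPF differences was not tested. Of the 146, 115 had an interval within -1 and 1 in GF mice, beside 63.8% of all genes. In GF mice 15 of them had an unadjusted p under 0.05 in limma, beside 5.04%. The model pooled the spread over all 12 mice and gave each gene the same SE in both comparisons. Choosing genes called in SPF mice thus favours narrow intervals and small p in GF mice, so that both counts are a description only. Of the 78 that rose in SPF mice, 64 were below 0 in GF mice, beside 50.5% of all genes. Of the 68 that fell, 49 were above 0 in GF mice, beside 49.3%. Such directions are relative to the scaling, where median centring left 32.9% of all genes above 0 in GF mice.

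The difference between the effects of tylosin in GF and in SPF mice was tested directly. It passed a limma adjusted p of 0.05 for 95 genes (17.1%), 40 (7.19%) with a more positive effect in GF mice and 55 (9.89%) with a more negative one. Median centring gave 19 and 60. The count depended on single mice, at 35 when SPF PAT mouse 27 was left out and 217 when mouse 21 of that group was left out. In 88 of the 95 the differences had opposite signs, and in 91 the difference in SPF mice was the larger. Choosing genes by a difference between the effects favours opposite signs. Both counts come from the values used for that choice, so that they are a description only. Across the 556 genes the GF and SPF differences had a Pearson correlation of -0.52 and a Spearman correlation of -0.51, with the same sign in 28.6% of genes, where genes are not independent replicates.

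**Figure D4:**
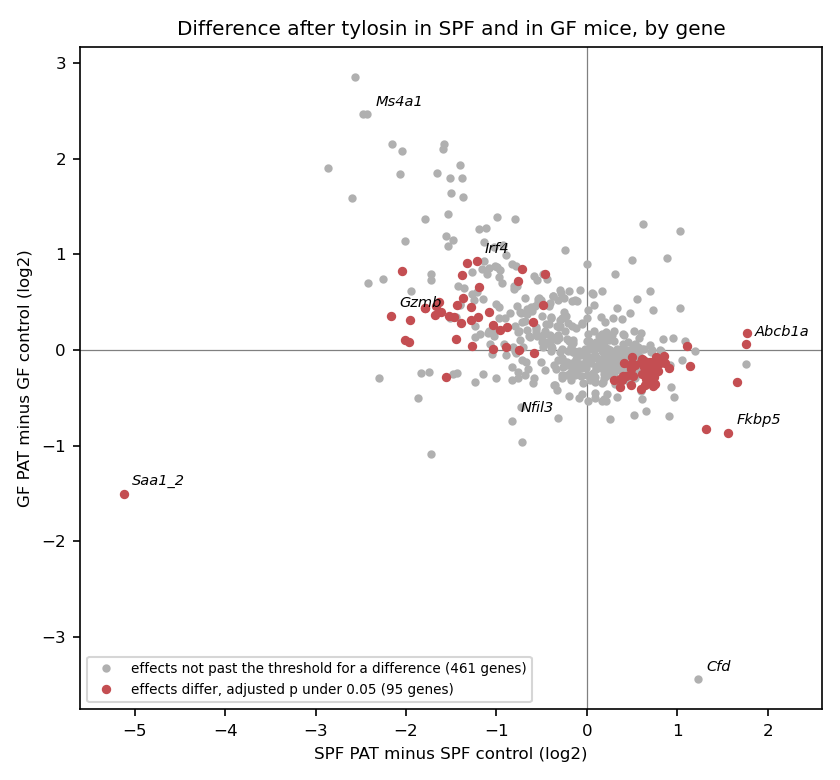
Difference between PAT and control mice in log2 normalized count for each of 556 genes, in SPF mice (x axis) and in GF mice (y axis). Red points are the 95 genes whose effects differed at a limma adjusted p under 0.05. Most red points lie near 0 on the y axis and away from 0 on the x axis, and Ms4a1 and Cfd, which differed widely in GF mice, are not among them.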

How the data were processed

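RNA of terminal ileum was measured with the nCounter mouse immunology panel. The authors normalized the counts using DESeq2 (version not given in the sources used here), so the deposited table holds log2 normalized counts per gene and mouse; no reads were aligned. The 28 entries without values (14 reference genes, 8 negative and 6 positive controls) were not analysed here. Counts were recovered with 1 size factor per mouse (0.830 to 1.25), and every value that was not 0 gave a whole count within 0.01. Depth limits the precision of low genes, and the intervals given are limma's over mice.

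Groups came from the sample labels. Tests of the log2 values used lmFit and eBayes of limma 3.58.1 in R 4.3.3, with 1 mean per group over all 12 mice, no filter and Benjamini-Hochberg adjustment over 556 genes at 0.05. The test steps were tested on simulated data.

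The members and the gene lists were chosen with earlier results of these data known. Named genes are the 12 with the smallest p, the 6 highest and 6 lowest differences and the highest and lowest member of each list at a mean of at least 20 normalized counts, all measured members of the macrolide, efflux and glucocorticoid lists, and genes of products the study measured; 5 genes of this rule are not reported here. The genes named because they did not overlap in a list were chosen after their values were seen.

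Alternatives were an intensity trend, robust variance, fits to the compared groups alone, median centring, quantile normalization, voom, a filter at a mean of 20 normalized counts, a pseudocount of 1, Tukey HSD, leaving out each mouse and, chosen after seeing the data, the B cell and follicle list mean as a covariate. Promoters came from RefSeq (GRCm38.p6).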

Additional observations from a re-analysis of the deposited data

Results flagged for a closer look

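The effect of tylosin, the difference between PAT and control mice on the log2 scale, was compared between GF and SPF mice for each gene, and 95 genes differed at a limma adjusted p under 0.05. The values here are the effect in GF mice minus that in SPF mice for the named genes among them. It was more positive in GF mice for Saa1_2 (3.62), S100a8 (2.87), Gzmb (2.52), Cd8a (2.22), Irf4 (2.15), S100a9 (2.13), Il17a (1.92), Saa3 (1.91), Cxcl10 (1.85), Tap1 (1.82), Tigit (1.56) and Il12rb1 (1.26). It was more negative in GF mice for Fkbp5 (-2.42), Itga2b (-2.14), Cxcl11 (-1.99), Abcb1a (-1.70), Bst1 (-1.60), Mme (-1.31), Pdgfrb (-1.11), Dpp4 (-0.82) and Nfkb1 (-0.55). None of these genes passed the test in GF mice alone.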

How the results depend on the processing

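The count of 0 genes between GF PAT and GF control mice was 1 with voom (Fkbp5) and 0 under the other alternatives with all mice, Tukey HSD and the covariate included. Leaving out 1 mouse gave 0 to 1, the 1 being Irf4 without GF control mouse 37. The number of genes with an interval within -1 and 1 was 278 to 371 with all mice, and 311 to 366 with 1 mouse left out. The SPF count of 146 was 76 with only the SPF groups and 55 with Tukey HSD, and 64 to 232 with 1 mouse left out (75 and 64 without SPF control mice 7 and 2, 73, 89 and 232 without SPF PAT mice 27, 26 and 21). The 95 genes whose effects differed were 69 to 133 with all mice and 35 to 217 with 1 mouse left out. That count was 58 and 47 without GF control mice 39 and 38, 45 and 37 without GF PAT mice 42 and 41, 51 and 45 without SPF control mice 7 and 2, and 35, 50 and 217 without SPF PAT mice 27, 26 and 21. The distance between minus within groups, 1.31 with all mice, was -0.69 to 5.498 with 1 GF mouse left out, and below 0 without GF PAT mouse 42 or 41 or GF control mouse 39. Differences of named genes that were near 0 or widely spread turned sign, and the cause was not tested. With median centring these were Cebpb -0.18, Bst1 -0.00992, Abcb1a -0.13, Tnf -0.12, Cd4 -0.16, with quantile normalization Gzmb -0.0725, Ctss 0.0509, Mme 0.0175, Dpp4 0.20, Il1b -0.21, Tnf -0.31, Cd4 -0.13, and with the B cell and follicle covariate, chosen after seeing the data, Ccr6 -0.14, Tcf7 -0.20, Abcb10 0.0575, Entpd1 0.0800, Tnf -0.58, Ptgs2 0.25, Nos2 0.0842, Rela 0.0529, Mapk14 0.0436, Cd4 -0.29, Ptprc -0.12. With 1 mouse left out the ranges that crossed 0 with a turned sign were Abcb10 -0.14 to 0.0659, Abcb1a -0.0251 to 0.20, Bst1 -0.0385 to 0.40, Cd4 -0.21 to 0.29, Cebpb -0.12 to 0.10, Cxcl1 -0.93 to 0.67, Cxcr2 -0.19 to 1.43, H2-Q10 -0.50 to 0.0726, Ifng -0.63 to 0.42, Il10 -0.54 to 0.0805, Mapk14 -0.0608 to 0.0565, Ptgs2 -0.50 to 0.0681, Rela -0.15 to 0.0207, Thy1 -0.28 to 0.11, Tnf -0.24 to 0.45. No paired analysis was possible because the mouse numbers in the labels are not shared between groups. Low counts limit what can be seen for genes such as Il6, Cxcl1 and Cxcr2.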
